A study of Mus musculus with 24 samples.

Results

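The smooth muscle contractile genes Acta2, Myh11, Tagln, Cnn1, Actg2, Des, Smtn, Myocd, Lmod1 and Mylk were followed in 4 tissues (heart, skeletal muscle, liver and brain) from wild-type and Rap1 knock-in mice. They were chosen by gene, through the accession of each probe, and make up 10 of the 21368 named genes of the array. Among its 55681 probes, 11 belong to them, with 1 probe for each gene except Smtn, which has 2. The levels were highest in the heart or the skeletal muscle for 9 of the 10 genes, and no gene differed between the genotypes at an adjusted p under 0.05 in any tissue. In the heart, however, 2 of the 3 knock-in arrays carried higher levels of 7 of the genes than any wild-type array, while the third knock-in array lay within the wild-type range for 6 of those 7.

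Smooth muscle surrounds arteries, veins, airways and gut. Its cells shorten when calcium and calmodulin activate myosin light chain kinase, which phosphorylates the light chains of smooth muscle myosin so that it pulls on actin. Serum response factor, bound to the sequence called the CArG box, and its cofactor myocardin drive many of the genes for this apparatus. In a liver or brain sample such RNA can come from the walls of vessels, and some of the genes are also used by heart and skeletal muscle fibres. The cell source of the RNA was not measured here.

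The data are 24 one-color Agilent mouse arrays, 1 for each of 4 tissues of 6 male mice, 3 wild type (WT) and 3 homozygous for the knock-in (Rap1 KI/KI). The knock-in, made with CRISPR/Cas9 and back-crossed to C57BL/6N, replaces 1 amino acid (I312R) of RAP1, the product of Terf2ip, which sits at telomeres through the protein TRF2. The substitution abolishes that contact, every cell of the animal carries it, and the WT mice were littermates. Single animals go by WT1, WT2, WT3, KI1, KI2 and KI3. The age was 5 months for WT1 and KI1 and 2 months for the remaining 4 animals, and the labels name no treatment. A level is the log2 ratio of the intensity of a probe to the 75th percentile of intensity on the same array, so 0 means a probe at that percentile, and 1 unit is a doubling. Levels were compared for the same probe between arrays, never between probes. Each difference was tested with limma, a linear model fitted to all probes at once, and p-values were adjusted over all probes tested.

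The 75th percentile of intensity was between 470.7 and 1389 on the 24 arrays, and 56.5% to 72.7% of the probes were well above background by the scanner software. Of the 10 genes, 8 were well above background on all 24 arrays, Myocd was on 15 and Lmod1 on 11, and no probe was saturated. The tissue labels were checked against marker genes. All 6 hepatocyte genes were well above background on the 6 liver arrays and all 8 neuron genes on the brain arrays. The same held for all 8 cardiomyocyte genes on the heart arrays and all 8 skeletal fibre genes on the muscle arrays. Such counts do not separate the tissues, since all 8 neuron genes also passed in the heart of KI1. The mean level of the hepatocyte list was 7.96 to 8.61 in the liver and at most 0.12 elsewhere. For the neuron list it was 4.71 to 5.48 in the brain and at most 2.06 elsewhere. For the cardiomyocyte list it was 7.7 to 8.35 in the heart and at most 0.75 elsewhere. For the skeletal fibre list it was 7.23 to 7.91 in the muscle and at most -0.72 elsewhere. The liver arrays and the brains of WT1 and KI1 shared slide 1. The other 4 brains and the hearts of WT1, KI1, WT2 and KI2 were on slide 2, and the hearts of WT3 and KI3 shared slide 3 with the muscle arrays. The liver and the muscle shared no slide.

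The promoters are shown first, and no link between them and the levels was tested. RefSeq promoter windows (GRCm38.p6, from 250 bases before to 50 after the start) were at hand for Acta2, Cnn1, Des, Lmod1, Mylk and Smtn. Windows for Myh11, Tagln, Actg2 and Myocd were not at hand. The Mylk window lies inside the annotated span of the gene. None of these 6 windows held a CArG box with its 6 middle bases all A or T, which 1.63% of all 32851 windows held. The motif reads the same on both strands. Allowing 1 of the 6 middle bases to be G or C, 8.5% of all windows held a match and 1 of the 6 did, that of Acta2, with 2 matches. They lie 84 to 75 and 34 to 25 bases before the start, on the minus strand of chromosome 19, and each is printed with 10 bases on either side and the match in capitals. Both stretches lie inside the annotated span of Acta2. None of the 6 windows held TATAAA on either strand, against 13.6% of all windows, so that it overlapped no CArG match. For Cnn1 and Lmod1, 2 of the genes that differed most between heart arrays, the window is printed up to the first base of the annotated gene.
Acta2, chr19:34255438-34255467, minus strand: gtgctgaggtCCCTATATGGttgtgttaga
Acta2, chr19:34255388-34255417, minus strand: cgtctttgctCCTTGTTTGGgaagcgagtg
Cnn1, chr9:22099003-22099220, plus strand: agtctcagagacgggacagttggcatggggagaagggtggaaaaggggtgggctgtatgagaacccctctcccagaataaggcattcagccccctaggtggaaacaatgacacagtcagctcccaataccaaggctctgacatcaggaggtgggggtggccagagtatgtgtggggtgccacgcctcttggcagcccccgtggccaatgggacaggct
Lmod1, chr1:135324563-135324812, plus strand: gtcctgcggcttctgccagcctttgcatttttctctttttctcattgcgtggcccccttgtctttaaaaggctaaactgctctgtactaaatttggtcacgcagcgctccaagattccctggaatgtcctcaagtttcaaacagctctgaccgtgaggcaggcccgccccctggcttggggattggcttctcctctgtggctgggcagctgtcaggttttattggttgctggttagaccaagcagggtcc

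The first comparison asks how the contractile genes differ between the tissues, over the 6 mice of each. All 10 were higher in the heart than in the brain, and all 10 were higher in the muscle than in the brain. The heart exceeded the liver in 9 genes and the muscle exceeded it in 9, with Mylk, the light chain kinase, as the exception in both. Heart and muscle were closer to each other, with 6 genes higher in the heart, 1 higher in the muscle and 3 not called. The heart means include the arrays of KI1 and KI3, which were high for several of these genes. In WT mice only, 3 genes were called between heart and muscle. Differences between tissues are common on these arrays: an adjusted p under 0.05 in the same direction was reached by 39.9% of 42463 probes for the heart over the brain, 41.4% for the muscle over the brain, 32.3% for the heart over the liver, 36.3% for the muscle over the liver, 21% for the heart over the muscle and 22.4% for the muscle over the heart. The median difference of the 10 genes was 4.37 for the heart over the brain, where that of all probes was 0.27, and 4.61 for the heart over the liver, where that of all probes was 0. In bulk tissue, fewer cells of a type and less RNA in each cell cannot be told apart.

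Acta2 (NM_007392, chr19:34240336-34255585), the alpha actin of vascular smooth muscle, spanned levels of 5.54 to 7.5 across the 6 hearts (median 6.26), 4.42 to 5.28 across the muscles (4.59), 1.77 to 2.41 across the brains (2.07) and -0.55 to 2.16 across the livers (0.72). Every heart array lay above every muscle array, and every muscle array above every brain array. The fitted difference was 1.68 (SE 0.26) for the heart over the muscle, a 3.2-fold higher level (limma adjusted p = 2.8e-05), and 1.30 (0.26) for the brain over the liver. The level was 48.8-fold higher in the heart than in the liver. Actg2 (NM_009610, chr6:83512909-83536251), the gamma actin typical of gut and other visceral smooth muscle, spanned -0.77 to 2.67 across the hearts (median 0.64), -2.83 to -0.68 across the muscles (-1.32), -4.17 to -0.88 across the livers (-2.75) and -4.57 to -2.65 across the brains (-3.32). It was higher in the heart than in the muscle by 2.52 (0.47; adjusted p = 2.1e-04), and the ranges of its neighbours in this order overlapped. Liver and brain did not differ in Actg2 at the threshold (adjusted p = 0.11). The call for the muscle over the liver (1.08, SE 0.47, adjusted p = 0.047) was lost without WT1, WT3, KI1 or KI2 and with the slide as a block, where the liver lay above the muscle by 0.57.

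Myosin and its kinase did not follow the same order. Myh11 (NM_001161775, chr16:14194527-14292188), the smooth muscle myosin heavy chain, spanned -0.04 to 2.6 across the hearts (median 0.62), -0.17 to 0.41 across the muscles (0.21), -3.16 to -2.13 across the brains (-2.5) and -4.54 to -2.75 across the livers (-3.84). The heart and muscle ranges overlapped, and the difference of 0.88 (0.29) between them (adjusted p = 0.021) was not called without WT2, WT3, KI1 or KI3. Mylk (NM_139300, chr16:34745199-35002436) varied most within the liver, from -2.9 in WT1 to -0.11 in WT3. It was -2.9 and -2.14 in the livers of the 5-month mice WT1 and KI1, and -0.86 to -0.11 in those of the 2-month mice. The part of age was not tested. The median of Mylk was -0.72 for the livers, -1.25 for the hearts, -1.31 for the muscles and -2.57 for the brains. By the fit over all mice, only the brain stood apart. The liver exceeded it by 1.39 (0.38), the heart by 1.39 (0.38) and the muscle by 1.21 (0.38), with limma adjusted p of 0.0027, 0.0034 and 0.0084. The liver of WT1, however, lay below every brain array (-2.74 to -2.18). The other 3 pairs of tissues were not called, with adjusted p from 0.69 to 1.

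The products of Tagln, Cnn1 and Lmod1 bind actin. Tagln (NM_011526, chr9:45929628-45936058), also called SM22 alpha, spanned 4.27 to 6.77 across the hearts (median 5.21), 4.26 to 4.71 across the muscles (4.43), 2.68 to 4.08 across the livers (3.33) and 1.82 to 3.15 across the brains (2.11). It was one of the genes higher in the liver than in the brain, by 1.11 (0.31; adjusted p = 0.0032). The heart over the muscle difference of 0.96 (0.31; adjusted p = 0.018) was lost without WT2, KI1 or KI3. Cnn1 (NM_009922, chr9:22099221-22109221), calponin, which restrains the myosin ATPase, spanned 1.59 to 5.89 across the hearts (median 3.24), 0.11 to 2.3 across the muscles (1.56), -1.19 to 0.54 across the brains (-0.67) and -4.44 to -0.45 across the livers (-2.76). Its level was 76.1-fold higher in the heart than in the liver. Lmod1 (NM_053106, chr1:135324813-135368065), which starts actin filaments, was not well above background on any liver or brain array, was on 6 heart arrays (-4.58 to -1.13) and was on 5 of the 6 muscle arrays (-4.1 to -2.3). Against the lowest signals that count as above background, it was at least 8.63-fold higher in the heart and at least 6.62-fold higher in the muscle than in the liver, and at least 9.74-fold and 7.48-fold higher than in the brain.

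Desmin and smoothelin RNA were both high in striated muscle. Des (NM_010043, chr1:75360292-75368579), desmin, the intermediate filament of all muscle, spanned 5.87 to 6.65 across the muscles (median 6.28), 4.23 to 5.36 across the hearts (4.88), -3.63 to -2.44 across the livers (-2.85) and -4.63 to -3.66 across the brains (-4.46). No ranges overlapped, and each step was called: 1.38 (0.22) for the muscle over the heart, 7.83 (0.22) for the heart over the liver and 1.40 (0.22) for the liver over the brain. Des was the only one of the 10 genes that was higher in the muscle than in the heart, and it was 1560-fold higher in the muscle than in the brain. Smtn (chr11:3517522-3539292), smoothelin, spanned 5.23 to 6.25 across the hearts (median 5.73), 5.19 to 5.94 across the muscles (5.47), 1.15 to 1.41 across the livers (1.28) and 0.44 to 1.07 across the brains (0.56) by its brighter probe (NM_001284428). Heart and muscle were not called apart (0.24, SE 0.16, adjusted p = 0.25). The other probe (NM_013870) spanned 1.94 to 3.53 across the hearts, 2.58 to 3.46 across the muscles, -1.51 to -0.62 across the livers and -2.5 to -1.82 across the brains, and the mean over both probes put the muscle above the heart by 0.08.

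Myocd (NM_145136, chr11:65173608-65269989), the cofactor myocardin, was high in the heart alone. Its levels were 1.82, 1.5 and 3.04 in the hearts of WT1 to WT3 and 1.61, 2.48 and 2.08 in those of KI1 to KI3. In the muscle it ran from -4.99 to -4.05 and was well above background on 4 of 6 arrays, in the brain from -6.11 to -5.03 on 5 of 6, and in the liver on none. The level in the heart was 96.8-fold that in the muscle (6.6, SE 0.25, adjusted p = 7.7e-14), 184-fold that in the brain and at least 311-fold that in the liver. No other gene of the 10 differed by so much between heart and muscle. The brain level was at least 1.69-fold, and the muscle level at least 3.21-fold, above the liver.

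**Figure D1:**
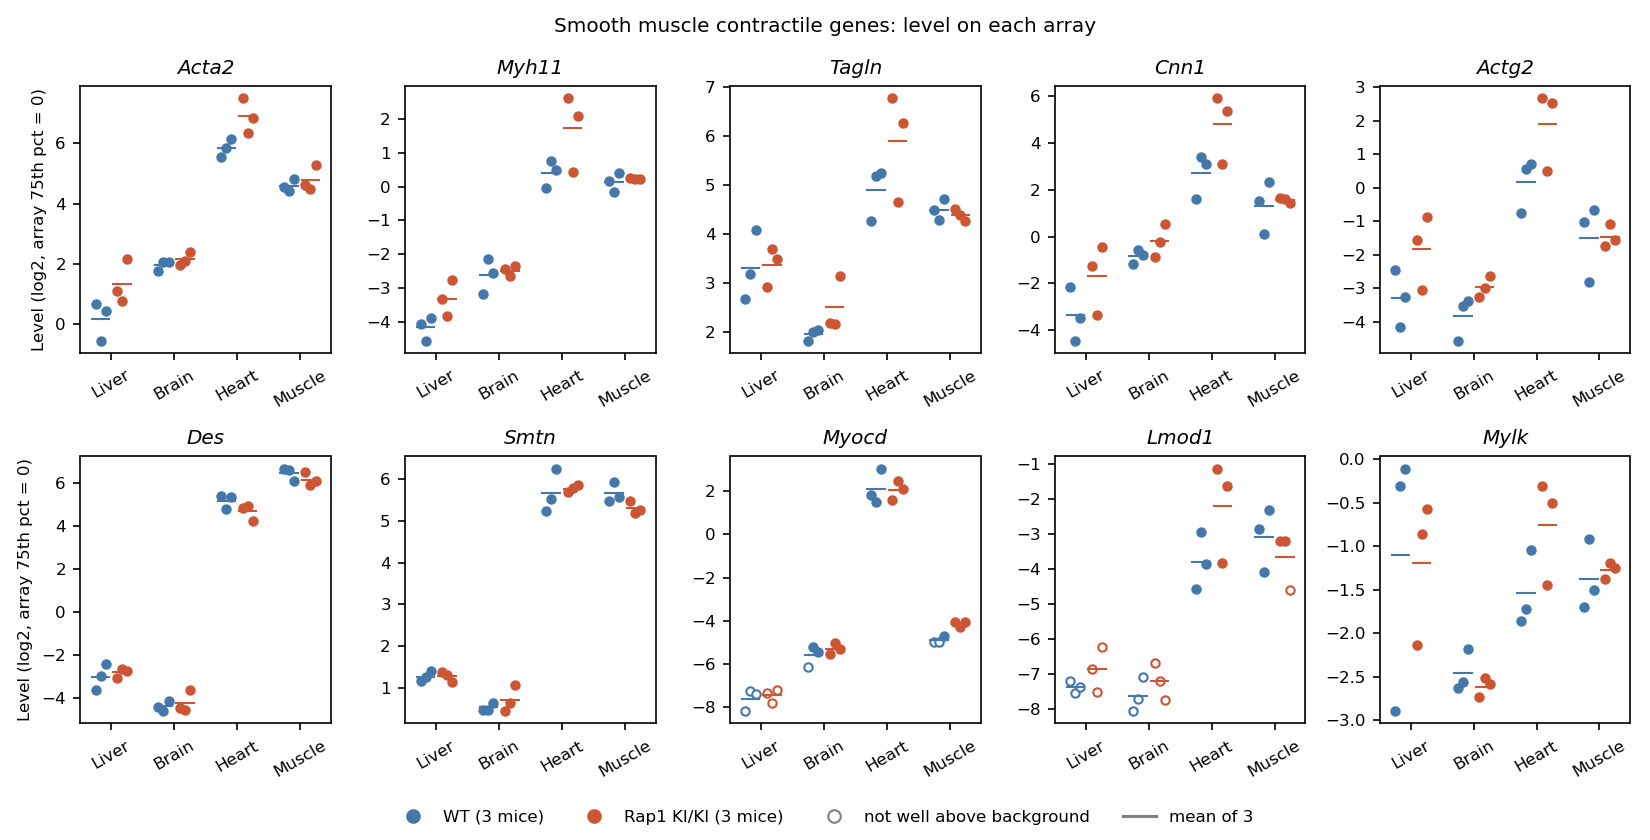
Level of each of the 10 genes on the 24 arrays (y axis, log2 of intensity over the array's 75th percentile; each panel has its own scale) by tissue (x axis), with WT mice in blue, Rap1 KI/KI mice in red, open points where the probe was not well above background, and lines at the mean of 3 mice. Myocd lies between 1.5 and 3.04 in the heart and below -4 elsewhere, and Des lies above 4 in heart and muscle and below -2 in liver and brain.

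Liver and brain, the tissues with the lower levels, split the genes. Tagln, Des, Smtn and Mylk were higher in the liver (4 of 10, where 45.6% of all probes were higher there), and Acta2, Myh11, Cnn1 and Myocd were higher in the brain (4 of 10, where 33.4% of all probes were). Actg2 was not called, and Lmod1 was not well above background on any array of either tissue. The largest difference measured in both tissues was that of Cnn1, 2.00 (0.56) higher in the brain, a 4.00-fold difference. Acta2 was 2.45-fold and Myh11 2.25-fold higher in the brain, and Des was 2.64-fold higher in the liver. With the slide as a block, 6 genes were called, and Myh11 (adjusted p = 0.062) and Cnn1 (0.11) were not. Within slide 1, with 6 liver and 2 brain arrays, 5 were called, and Acta2 (0.068), Cnn1 (0.15) and Mylk (0.099) were not.

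With the slide as a block, 9 genes stayed higher in the heart than in the liver and 10 in the heart than in the brain, and within slide 2 all 10 were again higher in the heart than in the brain. For the heart over the muscle, 6 genes were called higher with the block, with Smtn (0.57, adjusted p = 0.039) in and Myh11 (1.1, 0.056) out, and within slide 3 there were 5. The muscle shared no slide with the liver or the brain. There, the block left 6 genes higher than in the liver, without Tagln, Cnn1 and Actg2, and 6 higher than in the brain, without Cnn1, Actg2, Myocd and Mylk, and for these slide and tissue cannot be told apart by a slide that holds both.

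**Figure D2:**
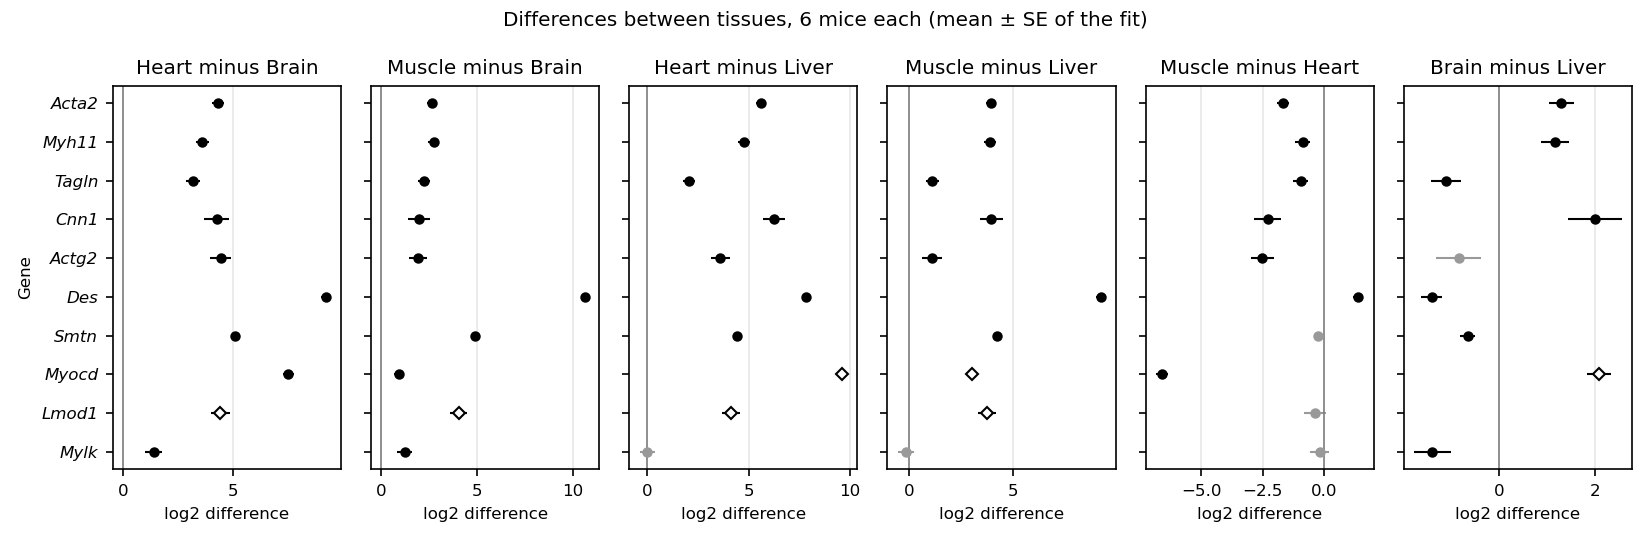
Fitted log2 difference between 2 tissues for each gene (x axis; bars are SE of the fit, 6 arrays a tissue), in black where the adjusted p was under 0.05 and grey otherwise; open diamonds mark a tissue with no array well above background, where the difference is no measured fold; Lmod1 is left out for the brain minus the liver. All 10 genes lie to the right of 0 for the heart over the brain (1.39 to 9.23), and Mylk lies at 0 for the heart over the liver.

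The genes that act around the contractile ones were counted too, at an adjusted p under 0.05. Of all probes, 39.9% were higher in the heart than in the brain, and 67.7% differed in either direction. Of 12 genes for light chains, the myosin phosphatase and their regulators, 8 were higher in the heart than in the brain and 2 lower. Among them Myl9, the light chain that the kinase phosphorylates, was higher by 2.97 (0.25). Of 11 other cytoskeletal genes, 9 were higher in the heart and 2 lower, and tropomyosin 1 (Tpm1) was higher by 5.62 (0.14). Among the 6 transcriptional regulators 4 were higher and 2 lower in the heart. Gata6 led with 10.0 (0.25), but it was well above background on only 4 of the 6 brain arrays. That value therefore rests in part on levels near background. The cofactors Mrtfa and Mrtfb were lower in the heart by 1.51 (0.17) and 1.56 (0.15), where Myocd was higher by 7.52 (0.25). Of 9 channels and receptors, 5 favoured the heart and 3 the brain. Between heart and muscle, 8 of the 9 were higher in the heart, against 21% of all probes. The calcium channel gene Cacna1c, for example, was higher in the heart by 3.98 (0.2). Relatives of the 10 genes in striated and non-muscle cells (16 measured) were higher in the heart than in the brain in 11 cases and lower in 2. Those that distinguish heart from muscle include Mylk3, the cardiac kinase, 6.90 (0.25) higher in the heart, and Mylk2, the skeletal one, whose heart minus muscle difference was -10.41 (0.33).

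The second comparison asks whether the contractile genes differ between Rap1 KI/KI and WT mice within a tissue. In the heart, Acta2, Cnn1 and Actg2 had higher means in the knock-in mice at an unadjusted p under 0.05, and 7 of the 10 genes had differences of 0.79 or more. None passed the adjusted threshold, for which the lowest value of any of the 10 was 0.65, and neither did any of the 34848 probes tested (0%). The unadjusted threshold was reached by 3 of 10 genes, against 7.51% of all heart probes. The median difference of the 10 genes was 1.02, against -0.02 for all probes. The single mice differed within the knock-in group.

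Calponin differed most. Cnn1 levels in the heart were 1.59, 3.38 and 3.1 in WT1 to WT3 and 5.89, 3.08 and 5.34 in KI1 to KI3. KI1 and KI3 lay above all WT hearts, and KI2 lay among them. The means were 2.69 ± 0.96 and 4.77 ± 1.49 (SD, n = 3 each), a difference of 2.08 (SE 0.8; limma adjusted p = 0.65). Actg2 levels were -0.77, 0.57 and 0.71 in WT hearts and 2.67, 0.51 and 2.53 in the KI hearts. Again KI1 and KI3 were high and KI2 was not, and the difference was 1.73 (SE 0.67; limma adjusted p = 0.65).

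By the brightest probe of each gene, Acta2 was the one of the 10 whose heart groups did not overlap. Its levels were 5.54, 5.86 and 6.16 in WT1 to WT3 and 7.5, 6.35 and 6.83 in KI1 to KI3. KI2 was again the lowest of the knock-in hearts, just above WT3. The difference was 1.04 (SE 0.34; limma adjusted p = 0.65), a 2.06-fold higher mean. All 3 KI hearts lay above all 3 WT hearts for 6.03% of the heart probes.

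The other genes of this group had no p under 0.05. Myh11 levels were -0.04, 0.76 and 0.48 in WT hearts and 2.6, 0.44 and 2.08 in the KI hearts (difference 1.31, SE 0.56, adjusted p = 0.65). Tagln levels were 4.27, 5.18 and 5.24 against 6.77, 4.66 and 6.26 (1.00, SE 0.57, adjusted p = 0.67). In both, KI1 and KI3 were the 2 highest of the 6 hearts, and KI2 fell within the WT range. Lmod1 showed the same pattern, with -4.58, -2.93 and -3.87 in WT hearts and -1.13, -3.84 and -1.62 in the KI hearts (1.6, SE 0.76, adjusted p = 0.65). So did Mylk, with -1.86, -1.72 and -1.05 against -0.31, -1.45 and -0.51 (0.79, SE 0.38, adjusted p = 0.65).

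Des, Smtn and Myocd did not share this pattern. Des levels were 5.36, 4.78 and 5.35 in WT hearts and 4.83, 4.92 and 4.23 in the KI hearts, and KI3 was the lowest of the 6 (-0.5, SE 0.29, adjusted p = 0.67). Smtn levels by the brighter probe were 5.23, 5.53 and 6.25 against 5.68, 5.79 and 5.85, with the KI hearts inside the WT range. By the other Smtn probe they were 2.46, 2.39 and 3.53 against 2.15, 2.31 and 1.94, all below the WT hearts (-0.66, SE 0.34, adjusted p = 0.65). The probes of Smtn thus differed in direction in the heart. The share of all heart probes with every KI heart below every WT heart is not given here. Such cases in the heart are therefore listed as values and not read as a result. Myocd, whose levels are given above, differed by -0.07 (0.44) between the genotypes.

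Counted by array, 7 of the 10 genes were more than 1 log2 unit above the WT mean in the heart of KI1, 6 in that of KI3 and 0 in that of KI2. KI2 alone differed from the mean of the 3 WT hearts by 0.39 for Cnn1, 0.5 for Acta2, -0.23 for Tagln and -0.05 for Lmod1; the 2 arrays set aside here are those seen to be high, so these values are a description with no test. KI1 and KI3 were on different slides and of different ages. Within slide 2 (WT1, WT2, KI1, KI2) the Cnn1 difference was 2.00 and within slide 3 (WT3, KI3) it was 2.24, and those of Acta2 were 1.23 and 0.66. All 7 genes of this group were higher in the KI hearts within both slides. The group was picked for KI1 and KI3 lying above every WT heart. Slide 3, whose hearts are WT3 and KI3, could therefore give no other result. Slide 2 holds KI1, so it is no separate check either. With each mouse left out in turn, 0 to 7 of the 10 genes had an unadjusted p under 0.05. The count was 0 without WT1 or without KI1, 1 without KI3 and 7 without KI2, and no gene passed the adjusted threshold. Leaving out KI2 keeps only the KI hearts seen to be high, so that count is no separate check. The share of all heart probes in these fits is not given here, so the counts are not read as a result.

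**Figure D3:**
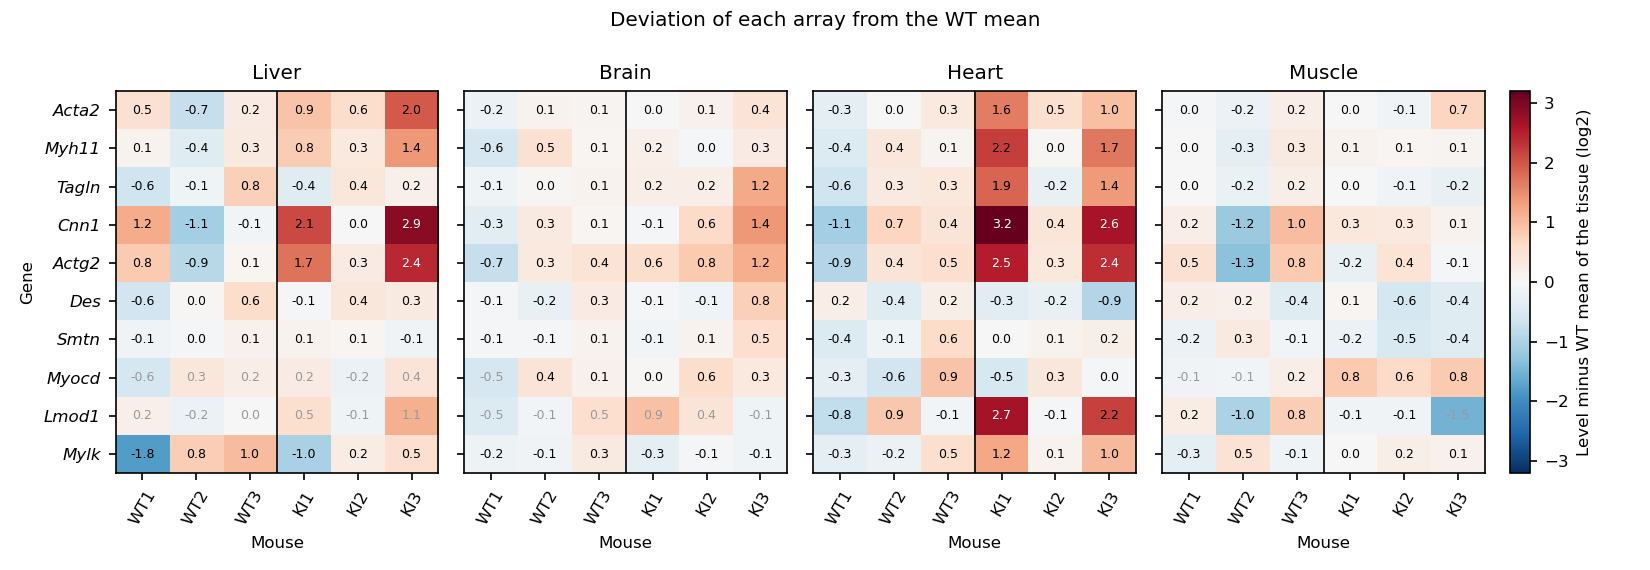
Level of each gene on each array minus the mean of the 3 WT arrays of the tissue (colour and printed value, log2), by mouse (x axis) and gene (y axis) in 4 tissues, with grey print where the probe was not well above background. In the heart, Cnn1, Actg2 and Lmod1 lie 2.2 to 3.2 above the WT mean in KI1 and KI3 and within 0.4 of it in KI2.

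Some other gene groups moved with the contractile genes in these hearts, and the genes named from them here were chosen after their values were seen. Adipocyte markers were higher in KI1 and KI3: Adipoq, the adipokine adiponectin, had levels of -4.23, 0.72 and -0.15 in WT hearts and 4.05, 0.42 and 4.86 in the KI hearts. The median over the 8 adipocyte genes lay 4.3 above the WT mean in KI1, 5.76 in KI3 and 1.33 in KI2. In the WT hearts it was -2.59 for WT1, 1.32 for WT2 and 1.21 for WT3, so KI2 was close to WT2 and WT3. The summed level of the list, in units of the 75th percentile, was 229 to 245 in WT hearts and 283 to 676 in the KI hearts, with 6 to 7 and 7 to 8 genes well above background. Lep, the leptin gene, was well above background in the hearts of KI1 and KI3 only.

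Genes of elastic artery walls were also higher in those arrays. The 5 genes of this list were well above background on all 6 heart arrays, and their summed level was 13.2 to 34.8 in WT hearts and 20.6 to 47.3 in the KI hearts. Their median deviation was 1.09 in KI1, 0.85 in KI3 and -0.09 in KI2. The neuron genes were mixed. Nefl and Syt1 were well above background in the hearts of KI1 and KI3 and in no other heart, while Camk2a was lower in all 3 KI hearts (-1.27 to -0.88) than in the WT hearts (-0.81 to -0.59), and the mean of Slc17a7 was -1.83 in the KI hearts and -1.56 in the WT hearts. Over the 8 neuron genes the summed level was 25.4 to 52.4 in WT hearts and 36.2 to 50.4 in the KI hearts, with 4 to 6 and 5 to 8 genes well above background.

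The heart of WT1 stood at the other end. Atrial genes were far lower in it than in the other 5: Myl7, the atrial light chain, had a level of -2.41 in WT1 and 5.03 to 8.33 elsewhere, and the summed level of the 6 atrial genes was 132 in WT1, 1170 and 2040 in the other WT hearts and 876 to 1840 in the KI hearts. WT1 had the lowest level for Acta2, Myh11, Tagln, Cnn1, Actg2, Lmod1 and Mylk among the 6 hearts. Without WT1 the Cnn1 difference fell to 1.53 and that of Acta2 to 0.88. Pericyte and endothelial genes did not follow KI1 and KI3 upward: the pericyte list summed to 117 to 141 in WT hearts and 70.3 to 106 in the KI hearts, and the endothelial list to 199 to 244 and 163 to 194, with all 9 and all 10 genes well above background throughout. Fibroblast genes (9 of 9) summed to 287 to 514 and 444 to 590, and cardiomyocyte genes (8 of 8) to 2460 to 4200 and 2380 to 3530. The part of fat, artery wall, nerve and atrium in the heart values was not tested.

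**Figure D4:**
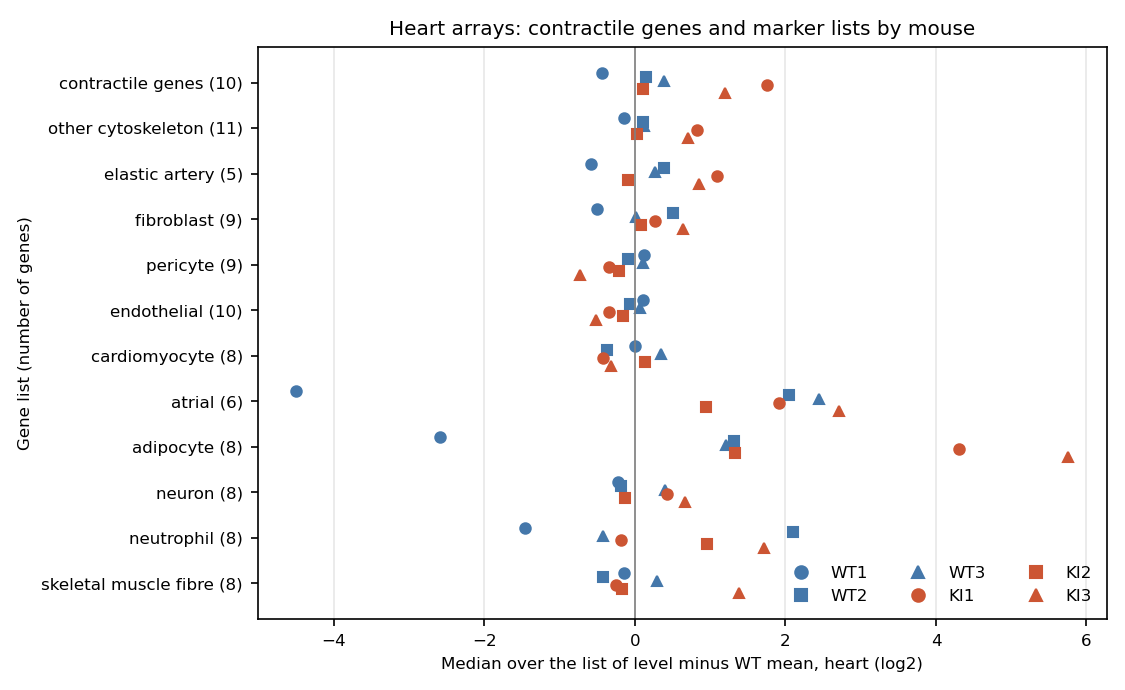
Median over each gene list of the level minus the WT mean in the 6 hearts (x axis, log2), for the contractile genes and 11 other lists (y axis), with 1 point for each mouse (blue WT, red Rap1 KI/KI). KI1 and KI3 lie to the right for the contractile genes (1.76 and 1.2), the elastic artery list (1.09 and 0.85) and the adipocyte list (4.3 and 5.76), and WT1 lies far to the left for the atrial list (-4.5).

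The genes around the contractile apparatus followed only in part. Among the 12 genes of light chains and phosphatase none had a p under 0.05 in the heart. Myl9 levels were 5.52, 6.86 and 7.05 in WT hearts and 7.64, 6.71 and 8.02 in the KI hearts, highest in KI1 and KI3 (0.98, SE 0.51, adjusted p = 0.65). Of 11 other cytoskeletal genes, 7 had higher means in the KI hearts, with a median difference of 0.51 and no p under 0.05. Synpo2, an actin-bundling protein, was above all WT hearts in all 3 KI hearts (2.23 to 2.5 against 2.69 to 3.22). Of the 9 channels and receptors, Kcnmb1, the smooth muscle subunit of the large calcium-activated potassium channel, had levels of -2.53, -2.32 and -2.87 in WT hearts and -0.05, -2.53 and -1.12 in the KI hearts (1.34, SE 0.59, adjusted p = 0.65).

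Srf, the serum response factor gene, had a lower mean in the KI hearts. Its heart levels were 3.32, 3.19 and 3.68 in the WT mice and 2.89, 2.78 and 2.51 in the KI mice, with no overlap (-0.67, SE 0.23, limma adjusted p = 0.65). The share of all heart probes with every KI heart below every WT heart is not given here, so the lack of overlap is not read as a result. Srf was the only one of the 6 regulators with an unadjusted p under 0.05, which 7.51% of all heart probes had. In the muscle, Srf also lay below the WT mice in all KI mice, as 4.09% of the muscle probes did. Its means there were 3.35 in WT and 2.87 in KI mice (-0.48, SE 0.29, limma adjusted p = 0.94). Of the 15 tested relatives in striated and non-muscle cells, only Acta1, skeletal alpha actin, had an unadjusted p under 0.05 (-1.93, SE 0.76, adjusted p = 0.65). That is 1 of 15, against 7.51% of the heart probes, and the median difference of the 15 was -0.06.

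In the liver, Acta2 and Myh11 had higher means in the knock-in mice at an unadjusted p under 0.05, and their groups did not overlap. Acta2 levels were 0.68, -0.55 and 0.44 in WT1 to WT3 and 1.11, 0.76 and 2.16 in KI1 to KI3 (1.16, SE 0.46, adjusted p = 1). Myh11 levels were -4.04, -4.54 and -3.86 against -3.32, -3.82 and -2.75 (0.85, SE 0.33, adjusted p = 1). KI3 was the highest liver for both, and the lowest KI liver, KI2, lay just above the highest WT liver. The unadjusted threshold was reached by 2 of 8 tested genes, against 2.13% of the liver probes. All KI livers lay above all WT livers for the same 2 genes, against 2.77% of the probes. No gene of the 8 and no probe (0%) passed the adjusted threshold, and the median difference was 0.52, against -0.01 for all probes.

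Cnn1 and Actg2 again varied most in the liver. Cnn1 levels were -2.17, -4.44 and -3.45 in the WT livers and -1.24, -3.35 and -0.45 in the KI livers (1.67, SE 0.83, adjusted p = 1). Actg2 levels were -2.47, -4.17 and -3.25 against -1.57, -3.04 and -0.88 (1.47, SE 0.63, adjusted p = 1). KI1 and KI3 were the 2 highest livers for both genes, and KI2 lay within the WT range. In the liver of KI3, 5 genes were more than 1 unit above the WT mean, among them Lmod1, which was not well above background there, against 2 in that of KI1, 1 in that of WT1 and 0 in that of KI2. Tagln, Des and Smtn differed by 0.02 to 0.19 and Mylk by -0.09, and Myocd and Lmod1 were not well above background on any liver array. Elastic artery genes had median deviations of 0.28 in KI1, 0.73 in KI2 and 0.75 in KI3, and of -0.09, -0.16 and 0.34 in WT1 to WT3, so that WT3 lay above KI1, with 4 to 5 of 5 genes well above background and summed levels of 1.96 to 2.73 in the WT livers and 3.11 to 3.38 in the KI livers. The fibroblast list (9 of 9 genes well above background) had median deviations of 0.29, 0.46 and 0.62 in KI1 to KI3 and -0.06, -0.21 and 0.43 in WT1 to WT3, with sums of 85.5 to 109 in the WT livers and 90.7 to 113 in the KI livers. Pericyte sums were 471 to 639 and 418 to 528. Their largest term was Vtn, with mean levels of 8.81 in the WT and 8.59 in the KI livers. By gene, 6 of the 9 pericyte genes had higher means in the KI livers, with a median difference of 0.11. The part of artery wall and fibroblasts in these values was not tested.

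In the brain no gene of the 9 tested had a p under 0.05 (2.62% of probes had), and none passed the adjusted threshold, as no probe did (0%). Tagln and Actg2 lay above all WT brains in all 3 KI brains, 2 of 9 genes against 4% of the probes. Tagln levels were 1.82, 1.99 and 2.05 in the WT brains and 2.18, 2.17 and 3.15 in the KI brains (0.55, SE 0.31, adjusted p = 1). Actg2 levels were -4.57, -3.53 and -3.38 against -3.26, -3.00 and -2.65 (0.86, SE 0.36, adjusted p = 1). The gap between the groups was small in both. The brain of KI3 was the highest for Acta2, Tagln, Cnn1, Actg2, Des and Smtn, and 3 genes in it were more than 1 unit above the WT mean. In the same array the median deviation of the fibroblast list was 1.55 and that of the elastic artery list 1.29, each at most 0.37 in absolute size on the other 5 brain arrays; their part in the Tagln and Actg2 values was not tested. Over the 9 genes the median difference was 0.19, against -0.05 for all probes. Within slide 1 the difference was 0.36 for Tagln and 1.3 for Actg2, and within slide 2 it was 0.64 and 0.63.

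In the skeletal muscle, the difference between the genotypes lay between -0.36 and 0.24 for the genes other than Myocd (0.76) and Lmod1 (-0.58), and no array had a gene more than 1 unit above the WT mean. Myocd levels were -4.99, -4.98 and -4.69 in WT1 to WT3 and -4.06, -4.28 and -4.05 in KI1 to KI3. Only WT3 of the WT muscles was well above background, and all 3 KI muscles were, so the gene entered the test through the group where it was higher. It was the 1 gene of 10 with an unadjusted p under 0.05 (2.48% of the probes had one) and the 1 with all KI muscles above all WT muscles (2.36% of the probes), and for that reason neither count is read as a result. Smtn lay below in all KI muscles, with 5.48, 5.94 and 5.57 against 5.47, 5.19 and 5.26 by the brighter probe and 2.88, 3.46 and 2.87 against 2.73, 2.62 and 2.58 by the other, as 4.09% of the probes did. No gene and no probe (0%) passed the adjusted threshold, and the median difference was 0.07, against -0.07 for all probes.

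Lmod1 levels were -2.85, -4.1 and -2.3 in the WT muscles and -3.19, -3.21 and -4.6 in the KI muscles, and KI3 was not well above background. Cnn1 levels were 1.51, 0.11 and 2.3 against 1.63, 1.6 and 1.41, with WT2 alone low. WT2 was also the lowest muscle for Actg2 (-2.83) and Myh11 (-0.17). In the muscle the median deviation of the neuron list was 6.41 in KI3 and 2.01 in KI1. That of the neutrophil list was 6 in KI1 and 2.78 in KI3. The neuron list summed to 58.8 in KI3, 26.9 in KI1, 22.4 in KI2 and 23.8 to 29.6 in the WT muscles. Camk2a went the other way, with means of 2.9 in KI and 3.39 in WT muscles. WT means of Nefl (-7.25), Gad1 (-7.04) and Slc17a7 (-6.85) lay near background, so 6.41 is no measured fold. In the muscles of KI1 and KI3, 0 of the 10 contractile genes were over 1 unit above the WT mean.

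Whether the genotype difference itself differs between the tissues was asked with an interaction term over all 24 arrays. None of the 10 genes passed the adjusted threshold and none had an unadjusted p under 0.05, against 0% and 2.93% of the probes. The lowest p was 0.14, for Acta2 and Lmod1. A difference between the heart and the other tissues was therefore not shown.

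The 10 genes can also be asked which of them vary together. Deviations from the mean of the tissue were taken on the 24 arrays, and each gene was set against the mean of the other members that were well above background on all arrays. Pearson's r was 0.91 for Myh11, 0.83 for Acta2 and Actg2, 0.81 for Cnn1, 0.76 for Lmod1 and 0.75 for Tagln. It was 0.26 for Mylk, 0.23 for Smtn, 0.13 for Myocd and -0.16 for Des. Without the heart arrays r was still 0.85 for Myh11 and 0.77 for Acta2, while that of Tagln was 0.43 and that of Lmod1 0.49. Lmod1 was not well above background on any liver or brain array, so its value rests largely on signals near background. Without the hearts r was 0.4 for Myocd, 0.26 for Des, 0.11 for Smtn and -0.13 for Mylk. The arrays share mice and slides, so these r describe these arrays and carry no p.

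Outside the list, the genes most like the mean of the 8 members on all arrays were Gldn, Myl9, Osr1, Foxf1 and Optc. Their r over 24 arrays was 0.83, 0.83, 0.82, 0.81 and 0.8, and Spearman's coefficient was 0.75, 0.7, 0.65, 0.72 and 0.58. Without the hearts of KI1 and WT1, the arrays farthest from the median, r was 0.66 to 0.76, and without all hearts it was 0.54 to 0.69. In the livers other than that of KI3, Osr1 (-8.13 to -6.86) and Optc (-8.28 to -7.45) lay below the lowest level that counts as well above background. Part of their r therefore rests on signals near background. Gldn, gliomedin, a protein of peripheral nerve, had heart levels of -7.43, -5.76 and -6.95 in the WT mice and -1.39, -6.46 and -1.93 in the KI mice, and was well above background in the hearts of KI1 and KI3 only. Osr1, a transcription factor gene, had heart levels of -1.92, -0.78 and -0.13 against 0.61, -1.07 and 1.03. In both, KI1 and KI3 stood above the other hearts and KI2 did not. Genes chosen for the highest r share the pattern of the members by that choice, so this is no separate observation.

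**Figure D5:**
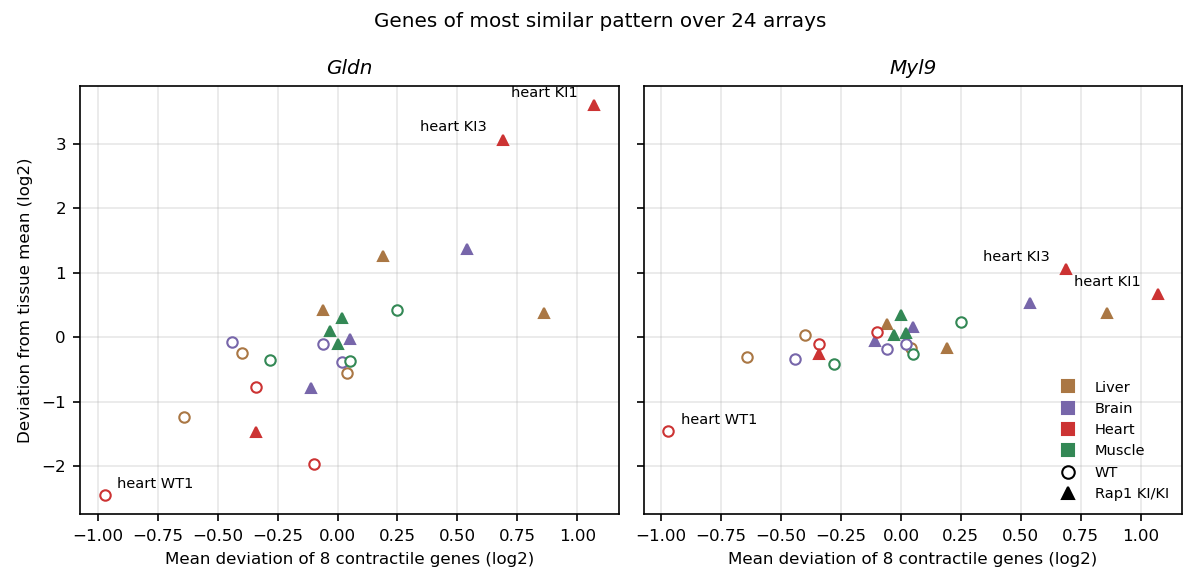
Deviation of Gldn and of Myl9 from the tissue mean (y axis, log2) against the mean deviation of the 8 contractile genes well above background everywhere (x axis, log2), for 24 arrays coloured by tissue, with open circles for WT and triangles for Rap1 KI/KI. The hearts of KI1 (1.07) and KI3 (0.69) lie at the right and that of WT1 (-0.97) at the left.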

How the data were processed

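Each of 24 one-color arrays held RNA from 1 tissue of 1 mouse. The deposited intensity is the processed signal, background-subtracted and detrended by Feature Extraction 12.0.3.1 (per the file headers), not normalised between arrays. A second table from the authors holds a score, the z-score of log10 processed signals within an array, and served only as an alternative; its column medians are -0.27 to -0.11. No normalisation or test for the arrays is given in the sources used here.

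Control and outlier spots were left out, spots of a probe averaged, and the 75th percentile of the array subtracted from log2 signals. Accessions were named through a RefSeq table (GRCm38.p6; 28331 of 55681 probes). A gene is represented by its brightest probe over 24 arrays. For genotype, probes that cleared background on 3 or more of the 6 arrays of a tissue were tested within that tissue with limma 3.58.1 (R 4.3.3, two-sided, Benjamini-Hochberg over all tested probes). For tissues and the interaction, 8 group means were fitted over all arrays and probes above background on at least 3 arrays of 1 tissue. The 10 genes and all lists were chosen with earlier results of these data known; genes outside the 10 were named by the smallest p in a list or the highest r, apart from marker genes chosen after seeing their values. The procedure was tested on simulated data. The alternatives were quantile scaling, normexp with an offset of 50, the z-scores, other filters, slide, age or mouse as a block, the mean over probes, single genotypes, single slides and each mouse left out.

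Same-numbered arrays of a genotype come from the same mouse, per the labels. Their deviations from the group means correlated at -0.22 to 0.26 over 36 pairs of tissues, 9 of them above 0.1, and the consensus correlation of the mouse was 0.026. Only 6 arrays a tissue, 3 a genotype, limit the precision.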

Additional observations from a re-analysis of the deposited data

Results flagged for a closer look

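For Mylk, all 3 KI hearts lay above the WT mean of the heart (difference 0.79) and all 3 KI brains lay below the WT mean of the brain (-0.16). For Smtn by its brighter probe, all 3 KI hearts lay above the WT mean (0.1) and all 3 KI muscles below it (-0.36). The other Smtn probe did not show this: its difference was -0.66 in the heart and -0.43 in the muscle, and the mean over both probes was -0.28 in the heart. These opposite directions were what drew attention, and the difference between the 2 tissues was not tested on its own in either case. The interaction over 4 tissues had a limma adjusted p = 1 for both genes.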

How the results depend on the processing

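No contractile gene passed the adjusted threshold between the genotypes in any tissue under any alternative. In the heart, genes with an unadjusted p under 0.05 numbered 3, and 6 after normexp or with all 24 arrays in 1 fit. The share of all heart probes under those alternatives is not given here, so the higher count is not read as a result. Counts of genes called between tissues kept within 1.5 times, apart from 4 for liver against brain in KI mice only and 5 within slide 1, 6 for brain against muscle with the slide as a block, and 3 for heart against muscle in WT mice only. With the mouse as a replicate block, the pairing changed no count of calls between tissues (7 for heart against muscle, as without it). In the heart, Myocd turned to 0.05 with quantile scaling and 0.38 within slide 2 (-0.38 to 0.39 with each mouse left out), and Smtn to -0.28 as the mean over probes and -0.40 within slide 3 (-0.12 to 0.40). KI2 alone against the WT hearts gave -0.23 for Tagln, -0.05 for Lmod1 and 0.35 for Myocd; since the arrays of KI1 and KI3 were set aside after they were seen to be high, these values say nothing about stability. Liver minus heart, Mylk was 0.10 with quantile scaling, 0.03 after normexp, 0.41 with the slide block and 0.44 in WT mice (-0.26 to 0.37 with a mouse left out). Liver minus muscle, Actg2 was 0.57 with the slide block and Mylk -0.11 to 0.54 with a mouse left out. Heart minus muscle, Lmod1 was -0.71 and Mylk -0.17 in WT mice, Smtn -0.08 as the mean over probes, and Lmod1 -0.09 to 0.91 with a mouse left out. The cause was not tested. Quantile scaling moved the median of all probes by -0.17 for liver against brain and 0.14 for brain against muscle. Lmod1 in liver and brain, and Myocd in liver, lay too close to background for a measured fold.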
